A study of Mus musculus with 10 samples.

Results

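The Egr family consists of 4 genes, Egr1, Egr2, Egr3 and Egr4, and their chromatin was examined in mouse cortical neurons depolarised with KCl and in untreated ones. The genes were taken by symbol from a RefSeq table of GRCm38 and make up 4 of its 21887 protein-coding genes on chromosomes 1 to 19, X and Y. All peak regions within 50 kb of them were collected, 226 of the 651012 regions in 8 lists. Both groups were primary cortical neurons of C57BL/6J mice, kept for 6 days in vitro and overnight in 3% serum. The treated cultures then received 50 mM KCl for 45 min, and the others nothing. Chromatin immunoprecipitation with sequencing was done with antibodies to Gtf3c1, the DNA-binding subunit of the RNA polymerase III factor TFIIIC, to Rpc155, the largest subunit of that polymerase, and to the histone marks H3K4me1, found at enhancers, and H3K27ac, found at active enhancers and promoters. The design text gives 3 biological replicates, but each antibody and condition has 1 list, which leaves the differences below without replicates to judge them by and without p-values.

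Egr proteins are transcription factors with C2H2 zinc fingers that bind a GC-rich site. Their genes are immediate-early genes: calcium entry through depolarised membranes activates kinases, and these switch on Srf and its ternary complex partners at CArG boxes and Creb at cAMP response elements, without new protein synthesis. In the brain Egr1, also called Zif268, is a widely used marker of neuronal activity and is needed for lasting synaptic plasticity. Egr2, or Krox20, is known for hindbrain segmentation and myelination by Schwann cells, Egr3 for the muscle spindle and Egr4 for male fertility.

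The sequences at start sites of Egr2 and Egr4 are shown, and the regions described below differ over several of them. Egr1 and Egr3 are left out because the RefSeq set used held no promoter window for them. RefSeq (GRCm38.p6) has 6 promoter windows of 300 bases for these genes, 5 for Egr2 and 1 for Egr4, each with 250 bases before a transcription start and 50 from it on. Of the Egr2 windows 3 overlap one another, and 1 of those is printed. Capitals mark the letters CGTCA, the core of the cAMP response element, on either strand, CArG boxes, and the TATA motif TATATAA.
Egr4, chr6:85513540-85513839, minus strand: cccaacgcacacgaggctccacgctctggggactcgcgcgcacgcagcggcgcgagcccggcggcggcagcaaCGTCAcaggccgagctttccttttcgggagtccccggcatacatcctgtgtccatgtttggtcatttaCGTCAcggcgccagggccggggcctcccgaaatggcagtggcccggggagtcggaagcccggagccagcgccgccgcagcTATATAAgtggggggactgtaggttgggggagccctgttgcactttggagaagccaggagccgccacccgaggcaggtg
Egr2, chr10:67537316-67537615, plus strand: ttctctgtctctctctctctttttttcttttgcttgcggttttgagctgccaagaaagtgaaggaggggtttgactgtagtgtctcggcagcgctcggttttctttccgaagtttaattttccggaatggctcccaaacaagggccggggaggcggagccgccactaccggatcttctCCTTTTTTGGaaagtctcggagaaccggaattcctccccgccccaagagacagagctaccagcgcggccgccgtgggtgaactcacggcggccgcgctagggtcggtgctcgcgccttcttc
Egr2, chr10:67537620-67537919, plus strand: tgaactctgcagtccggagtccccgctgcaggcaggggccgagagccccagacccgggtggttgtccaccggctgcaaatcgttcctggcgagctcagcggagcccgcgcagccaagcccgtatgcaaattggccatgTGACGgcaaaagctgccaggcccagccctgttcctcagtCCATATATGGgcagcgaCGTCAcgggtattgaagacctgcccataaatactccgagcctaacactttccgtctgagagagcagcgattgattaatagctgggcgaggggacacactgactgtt
The Egr4 window held 2 cAMP response element cores, with first bases at -177 and -109 from the start, and TATATAA at -29. The printed Egr2 windows each held a CArG box, at -72 and -73 from their own starts, and the second also held 2 cores, at -112 and -56. The Egr2 window at the lowest coordinates, 67535249 to 67535548, which is not printed, held none of the motifs searched. Over all 32851 windows of the table, searched on both strands, CGTCA was in 20.8%, a CArG box in 1.63% and TATATAA in 3.24%. The whole cAMP response element TGACGTCA, which contains the core, was in 1.79% of windows and in none of the 6. The same was true of TATAAA (13.6% of windows), of the Egr sites GCGTGGGCG (0.612%) and GCGGGGGCG (2.91%), and of GTTCGANNC (0.843%) and TGGCNNAGT (4.17%), taken here as cores of the B box and A box that TFIIIC binds. These matches are letters in a window, not sites shown to be bound.

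Gtf3c1 regions differed over some of these starts and not over others. They covered 84.7% of the second Egr2 window in the KCl list and 0% in the untreated list, and they covered 100% of the Egr4 window with KCl and 21.7% without. Over the first printed Egr2 window the cover was 41.0% with KCl and 36.0% without, and over the Egr2 window without motifs it was 0% in both lists. H3K27ac covered all 6 windows in full with KCl and none of them at all in untreated neurons. All the Egr2 windows lay in 1 KCl region (67535235 to 67539647), so they are not separate observations. H3K4me1 covered the Egr4 window fully in both lists and the second Egr2 window in neither, its regions at Egr2 lying on each side of that start. Rpc155 touched none of the 6 windows. Over all windows of the table the mean cover was 22.1% with KCl and 18.2% without for Gtf3c1, and 36.9% and 28.8% for H3K27ac. H3K27ac regions touched 41.3% of all windows with KCl and 35.2% without. The share of windows covered in full with KCl and untouched without was not counted. In mixed cultures, more cells with a region and more signal per cell cannot be told apart.

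Gtf3c1 was listed over a larger part of all 4 Egr genes with KCl. Its regions covered 100% of Egr1 (chromosome 18, 34861207 to 34864956) in the KCl list and 16.6% in the untreated list. They covered 62.7% of Egr3 (chromosome 14, 70077317 to 70082613) with KCl and 5.04% without. At Egr4 (chromosome 6, 85511121 to 85513589) the cover was 56.6% with KCl and 0% without, and at Egr2 (chromosome 10, 67534469 to 67542188) 41.0% and 11.2%. Egr1 thus had the widest cover in both lists and Egr4 the least in the untreated list. The larger cover with KCl held for 4 of 4 Egr genes and for 28.8% of all protein-coding genes, where the mean cover was 4.88% with KCl and 4.21% without. A cover larger by at least 25 percentage points was likewise found at all 4 and at 1.42% of protein-coding genes. Because a single region fills more of a short gene, the same count was taken over the 3776 protein-coding genes from 2469 to 7720 bp long, the lengths of Egr4 and Egr2, and gave 3.50%. The difference was 83.4 points at Egr1, and 20 protein-coding genes had a larger one. It was 57.7 points at Egr3, 56.6 at Egr4 and 29.8 at Egr2, with 48, 50 and 237 genes above them. Over the genome the Gtf3c1 list covered less with KCl, 29.4 Mb against 31.1 Mb without.

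**Figure D1:**
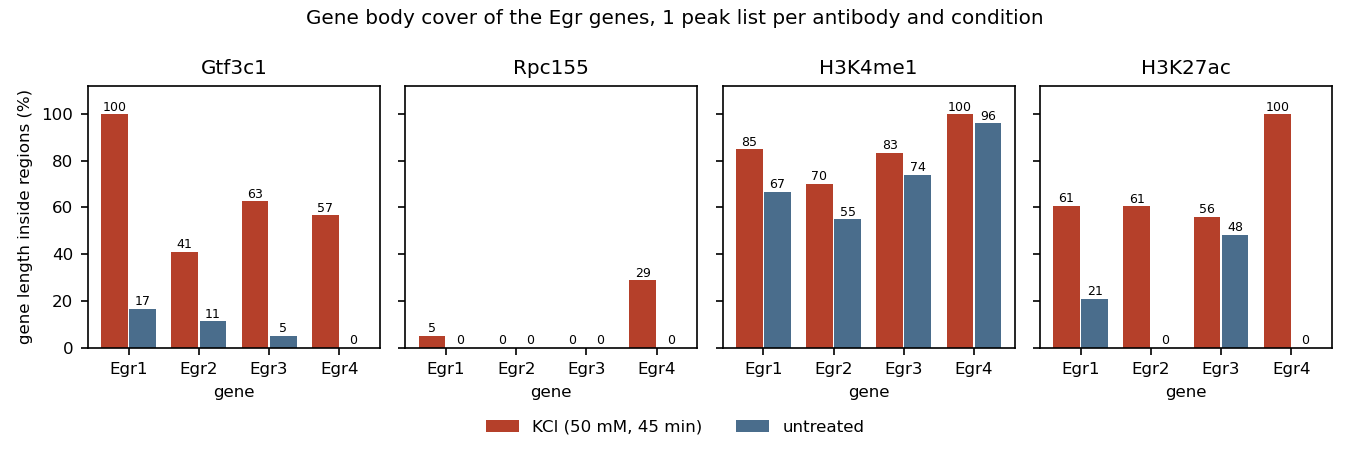
Share of each Egr gene's length inside the regions of a list (percent, vertical axis), by gene (horizontal axis) and antibody (panels), KCl left and untreated right; each bar is 1 list, so there is no error bar. Gtf3c1 covers 100% of Egr1 with KCl and 16.6% without, whereas H3K4me1 covers between 55.0% and 96.0% of every gene already without KCl.

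At Egr1 the Gtf3c1 signal with KCl formed a single broad region, from 34858844 to 34867071, which reached past the gene on both sides. It was 8.23 kb wide and ranked 11th of 58090 regions of its list by width, where the median region had 348 bp. Fold enrichment, which the authors' peak caller gives for a region's summit over local background, was 16.7, placing it in the top 0.733% of its list. Its summit lay 511 bp beyond the higher-coordinate end of the gene. In the untreated list 2 narrow regions stood there, one of 611 bp with a fold enrichment of 4.30 that ended 795 bp below the gene and one of 624 bp inside it with 3.58. The untreated regions thus lay inside the span that the KCl region filled.

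Egr3 had a weaker broad Gtf3c1 region with KCl, and Egr4 had several narrower ones. At Egr3 a region of 4.36 kb with KCl (70076283 to 70080639, fold enrichment 6.82) ran from below the gene into it, and ranked 95th of its list by width. The untreated list had 2 regions of 273 and 267 bp in that span, each with a fold enrichment of 2.87. At Egr4 the KCl list had a region across the start site (85513027 to 85514268, 6.28), a second inside the gene (85511269 to 85512103, 4.53) and another 326 bp beyond its other end (3.23). The untreated list held 1 region of 207 bp here, 186 bp outside the gene at the start site, with 3.22. Egr4 was thus the member whose body was free of Gtf3c1 regions without KCl.

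Egr2 differed from the others in that its strongest Gtf3c1 region was of nearly the same height in both lists. With KCl it lay at 67537077 to 67537438 with a fold enrichment of 6.28, and without at 67536556 to 67537423 with 5.73. What was added with KCl were 4 further regions over the rest of the gene, the largest at 67537666 to 67539317 with 5.92, none of which overlapped an untreated region. The ratio of the strongest region within 5 kb, KCl over untreated, was 1.10 at Egr2, 3.88 at Egr1, 2.21 at Egr3 and 1.95 at Egr4. Over the 11853 protein-coding genes with a region in both lists its median was 1.04, and 56.7% of them had a smaller ratio than Egr2 and 99.9% a smaller one than Egr1. A fold enrichment of at least 6 was reached with KCl and not without at 4 of 4 Egr genes and at 1531 of 21887 protein-coding genes (7.0%). For Egr2 this count rests on 6.28 against 5.73, values on each side of the threshold and close to it.

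**Figure D2:**
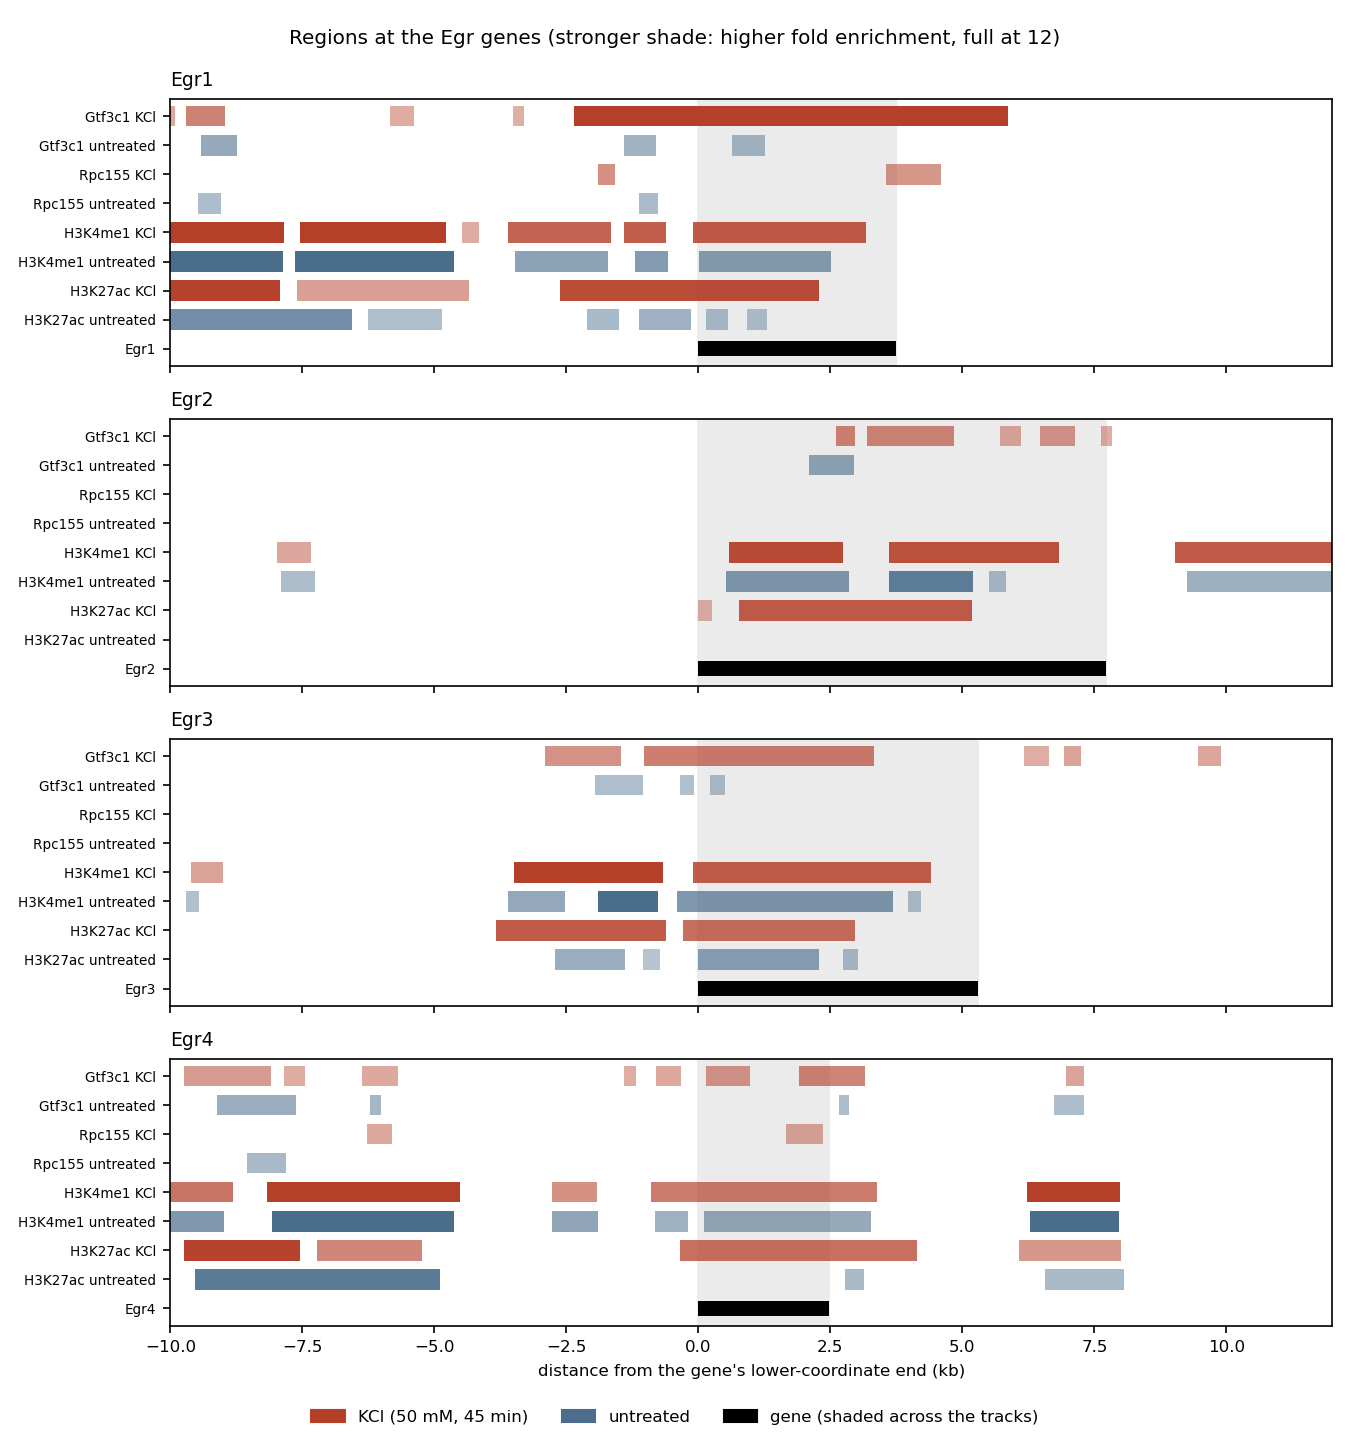
Regions of the 8 lists around each Egr gene, by distance from the gene's lower-coordinate end (kb, horizontal axis), KCl above untreated for each antibody; the black bar and grey shade mark the gene, and a stronger shade of a region means a higher fold enrichment. At Egr1 a Gtf3c1 region of 8.23 kb with KCl spans 2 untreated regions of 611 and 624 bp, and at Egr2 H3K27ac is present over the gene with KCl alone.

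Rpc155, which would mark RNA polymerase III itself, was sparse at these genes. Its list was shorter with KCl, 4251 regions against 12531. Within 50 kb of the 4 genes there were 4 regions in each list, all at Egr1 and Egr4, and none overlapped a region of the other condition. At Egr1 the KCl list had a region 1.59 kb below the gene (34859300 to 34859620, fold enrichment 5.27) and one over its higher-coordinate end (34864763 to 34865795, 4.72). The second had its summit 309 bp beyond that end, and the Gtf3c1 summit was at 511 bp. The untreated list had a region 767 bp below the gene (3.40) and 2 more near the noncoding gene Gm41689, 10.8 and 9.05 kb away (4.07 and 3.23). At Egr4 the KCl list had a region inside the gene, next to the start site (85512772 to 85513485, 3.27), and one 5.81 kb away (3.27), and the untreated list one 7.81 kb away at the end of Fbxo41, which encodes an F-box protein (3.57). Both KCl regions of Egr4 had a −log10 q of 2.39, where the weakest region of that list had 1.46.

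Rpc155 regions covered 28.9% of Egr4 with KCl and 0% without, and 5.17% of Egr1 with KCl and 0% without. The Egr4 difference rests on the region of −log10 q 2.39, and was 0 points with regions of q 1e-05 or lower. Cover was thus larger with KCl at 2 of 4 genes, and at 5.07% of all protein-coding genes. A region within 5 kb in the KCl list alone was found at Egr4 and at 3.52% of protein-coding genes. No Egr gene reached a fold enrichment of 6 with KCl alone, as 0.672% of protein-coding genes did. The KCl list had a median of 3.79 and a highest value of 64.7. In it the strongest Egr1 region, of 5.27, was in the top 18.4%, and the Egr4 region of 3.27 in the top 83.9%. Egr2 and Egr3 had no Rpc155 region within 50 kb in either list. Depth is unknown for these lists, and a region missing from one may lie under what it could detect.

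H3K27ac was listed over larger parts of the 4 genes with KCl too. It covered 100% of Egr4 with KCl and 0% without, 60.5% of Egr2 and 0%, 60.8% of Egr1 and 20.9%, and 56.0% of Egr3 and 48.3%. Of the 4 genes, Egr3 thus had the largest acetylated part in untreated neurons and the smallest difference. The cover was larger with KCl at 4 of 4 Egr genes and at 48.3% of protein-coding genes. It was larger by at least 25 points at 3 of 4, all but Egr3, and at 2.02% of protein-coding genes, or 6.44% of those of the lengths given above.

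The acetylated stretches were broad. At Egr1 a region from 34858593 to 34863485 (fold enrichment 10.96) took the place of 4 untreated regions of 2.41 to 4.44. At Egr2 the KCl region from 67535235 to 67539647 (9.59) spanned all 5 start sites of the RefSeq windows. The untreated list had no region closer than 5.66 kb to the gene, counted from its higher-coordinate end. That nearest region lay at the end of Ado, which encodes cysteamine dioxygenase, and had 8.63 without KCl and 11.9 with it. At Egr4 the KCl region from 85510775 to 85515264 (7.83) held the whole gene, and the untreated list had one of 367 bp, 306 bp outside the gene at its start site (3.68). At Egr3 a KCl region of 3.22 kb below the gene reached 9.72, against 4.82 and 2.41 for the 2 untreated regions there. The region over the gene itself had 8.10 with KCl and 6.22 without.

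A fold enrichment of 6 or more for H3K27ac within 5 kb with KCl alone was found at Egr1 and Egr2, and at 15.2% of protein-coding genes, so this count stood closer to the background than that of Gtf3c1. At Egr3 and Egr4 a region past this value was already there without KCl. For Egr4 it was the region of 4.64 kb and fold enrichment 10.5 at Fbxo41, which ended 4.89 kb from the gene. In the KCl list that place held 2 regions, of 11.8 and 6.09, that ended 7.54 and 5.23 kb away and so lay outside the 5 kb. The ratio of strongest regions at Egr4, 0.743, follows from that limit, and among regions that overlap the gene there was no untreated one. H3K27ac fold enrichments were higher with KCl at large: the median ratio over 13485 protein-coding genes was 1.37, and over the 3 Egr genes with a region in both lists 1.56.

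H3K4me1 marked all 4 genes in both conditions. It covered 84.9% of Egr1 with KCl and 66.7% without, 70.1% and 55.0% of Egr2, 83.3% and 74.0% of Egr3, and 100% and 96.0% of Egr4. Cover was larger with KCl at all 4, and at 43.2% of protein-coding genes. The difference exceeded that of 90.1% (Egr4) to 99.1% (Egr1) of protein-coding genes. Of those of the lengths given above, it exceeded that of 76.7% (Egr4) to 97.5% (Egr1). The strongest H3K4me1 region within 5 kb of each gene had a fold enrichment of 15.4 with KCl and 15.6 without at Egr1, 11.1 and 10.2 at Egr2, 12.9 and 12.5 at Egr3, and 18.5 and 13.3 at Egr4. The median ratio was 1.06, as it was over all protein-coding genes. None of the 4 reached 6 with KCl alone, since all were past it without, and 6.26% of protein-coding genes did. By this median, H3K4me1 fold enrichment within 5 kb of the genes thus differed little between the lists. The highest ratio, 1.39 at Egr4, sets different places side by side. At Egr4 the KCl region lay at Fbxo41 (85502953 to 85506600) and the untreated one beyond the start-site end (85517392 to 85519096). At Egr1 both strongest regions lay outside the gene, 4.78 and 4.64 kb away. Among regions that overlap the gene itself the median ratio was 1.32.

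**Figure D3:**
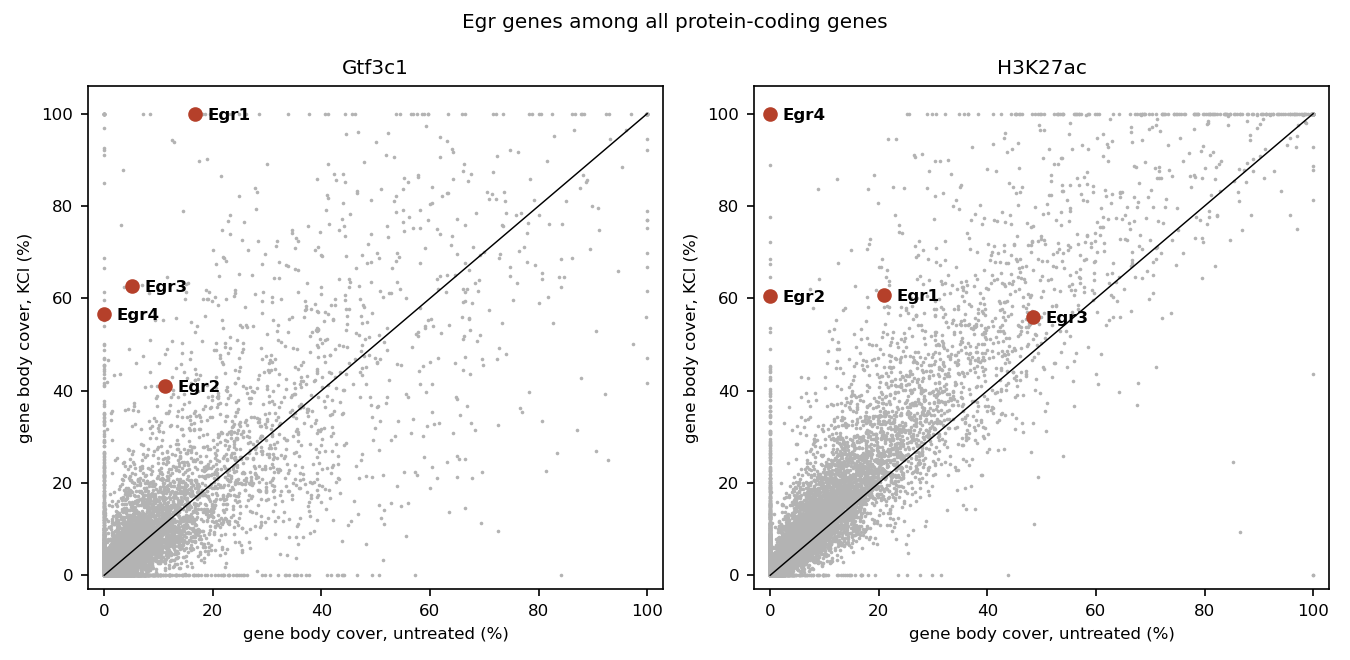
Gene body cover in the KCl list (percent, vertical axis) against the untreated list (percent, horizontal axis) for Gtf3c1 and H3K27ac; each grey point is 1 of 21887 protein-coding genes, red points are the Egr genes, and the line marks equal cover. All 4 Egr genes lie above the line for both antibodies, Egr3 only slightly for H3K27ac with 56.0% against 48.3%.

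Distal regions, more than 1 kb from the Egr gene and from the ends of other genes, were next compared. Gtf3c1 had 15 distal regions within 50 kb of the 4 genes with KCl and 15 without, covering 7.49 and 6.03 kb. The direction of this small difference depends on the distance: with regions more than 5 kb from a gene the length covered with KCl was 0.844 times that without, in place of 1.24 times. Of the untreated ones 7 overlapped a KCl region and 8 did not. Their fold enrichments ran from 2.51 to 5.20 with KCl and from 2.69 to 6.09 without. All Gtf3c1 regions within 50 kb covered 35.5 kb with KCl and 15.8 kb without, so that little of this difference came from distal regions. Rpc155 had 2 distal regions with KCl and 0 without, both named above. H3K27ac had 9 distal regions with KCl and 7 without, covering 12.1 and 7.44 kb, and 6 of the 7 untreated ones overlapped a KCl region. H3K4me1 had 29 and 30, covering nearly the same length, 28.8 and 28.6 kb, and 23 of the 30 were shared. How often distal regions are shared over the genome was not counted. These overlaps therefore do not tell the Egr genes from the rest.

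Of the 6 distal H3K27ac regions found with KCl alone, 2 lay near Egr2 and 4 near Egr4. Those of Egr2 were 46.2 and 41.6 kb below the gene, with fold enrichments of 2.84 and 4.46. Both fell on H3K4me1 regions listed in both conditions. The first of these places also had a Gtf3c1 region (67487578 to 67488094, 5.01) in the untreated list and none with KCl. Those of Egr4 were 40.1 and 24.7 kb below the gene, inside Fbxo41, and 30.3 and 31.3 kb above it, with 2.64 to 3.65. The places at 24.7 and 30.3 kb likewise had a Gtf3c1 region in the untreated list (3.40 and 3.58) and none with KCl. All 6 had lower fold enrichments than the strongest acetylated region over any Egr gene with KCl.

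Active distal enhancers, H3K4me1 regions that overlap H3K27ac and lie over 1 kb from any gene end, numbered 10 with KCl and 6 without around the 4 genes. With KCl 4 were near Egr1, 4 near Egr4 and 2 near Egr2. Without KCl 4 were near Egr1, 1 near Egr3 and 1 near Egr4, and 2 of those near Egr1 lay in the span of 1 KCl region. Gtf3c1 was listed at 4 of 10 with KCl (40.0%, exact 95% interval 12.2 to 73.8) and at 2 of 6 without (33.3%, 4.33 to 77.7). Over the genome it was at 37.7% of 34875 and at 45.5% of 39651. The intervals, which cover counting error only, are too wide to tell the Egr genes from the rest. The single enhancer of Egr3 (70073708 to 70074800) was not lost: with KCl its H3K4me1 region joined the next one and so came within 1 kb of the gene.

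Among these places, 2 carried Gtf3c1 together with both marks in both conditions. One lay above Egr1, at 34885190 to 34888447 with KCl, where H3K4me1 had a fold enrichment of 17.1 with KCl and 15.6 without, H3K27ac 6.08 and 5.46, and Gtf3c1 4.31 and 3.58. The other lay 3.76 kb beyond the start-site end of Egr4, at 85517348 to 85519114 with KCl, where H3K4me1 had 15.4 and 13.3, H3K27ac 4.59 and 3.68, and Gtf3c1 3.59 and 3.22. The strongest value at both was slightly higher with KCl for each antibody, with no replicates to judge it by. For Gtf3c1 above Egr1, however, the 4.31 belongs to a region (34886892 to 34887875) that overlapped no untreated one. The KCl region that did overlap the untreated one had 3.41, against 3.58 without KCl. Closer to Egr1, the enhancer at 34857592 to 34859552 was reached by the broad Gtf3c1 and H3K27ac regions of the gene with KCl and held the Rpc155 region of 5.27, while in the untreated list it had H3K27ac of 3.68 and neither factor.

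**Figure D4:**
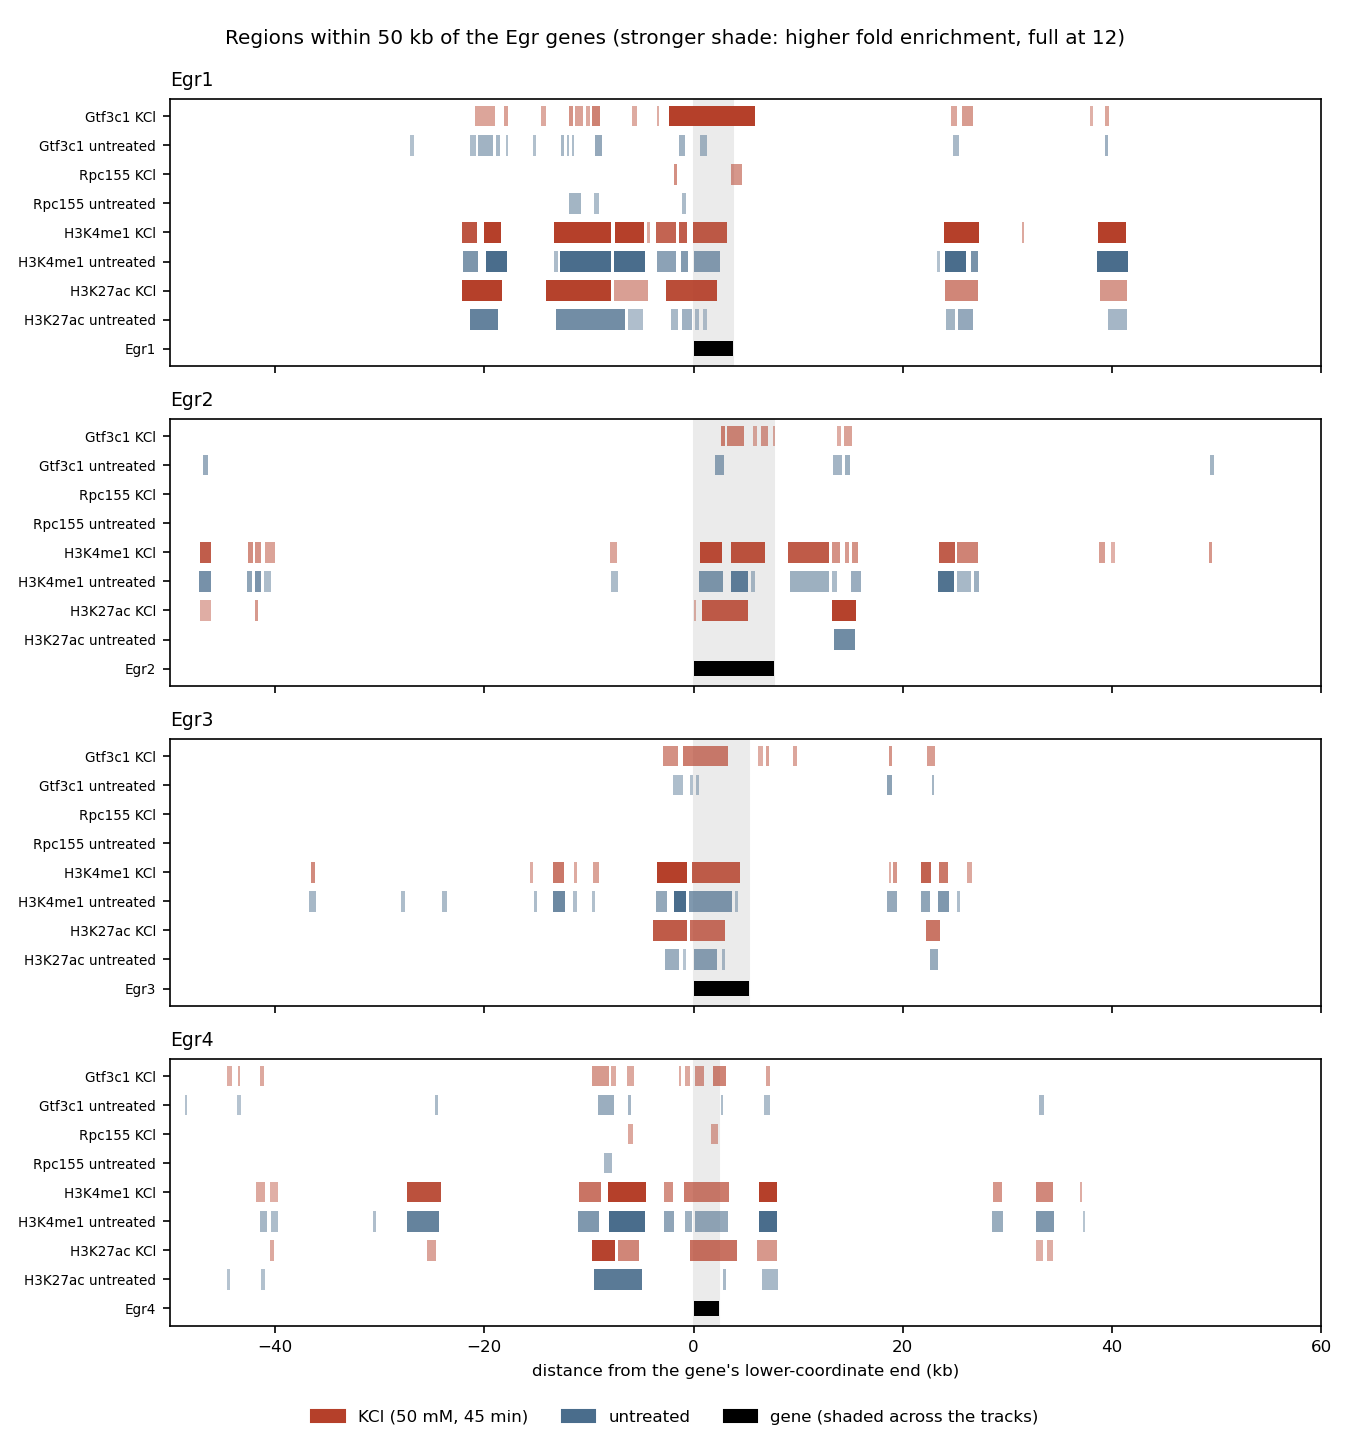
Regions of the 8 lists within 50 kb of each Egr gene, by distance from the gene's lower-coordinate end (kb, horizontal axis), KCl above untreated for each antibody; the black bar and grey shade mark the gene, and a stronger shade means a higher fold enrichment. Rpc155 tracks are empty at Egr2 and Egr3, and distal Gtf3c1 regions number 15 with KCl and 15 without.

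Genes tied to the Egr proteins were examined for the same Gtf3c1 difference. Nab1 and Nab2 encode corepressors that bind Egr1, and neither had a larger cover with KCl: Nab1 had 1.95% with KCl and 2.72% without, and Nab2 0% in both. Nab1 did have Gtf3c1 nearby, at up to 7.18-fold enrichment within 5 kb with KCl and 3.76 without. Among 10 relatives with C2H2 zinc fingers, 5 had a larger and 3 a smaller cover with KCl. Of these, Klf4, a pluripotency factor gene, alone differed by 25 points or more (41.9% with KCl, 0.431% without). Among 11 upstream activators, 8 were larger and 3 smaller, and the 2 past 25 points were Srf, whose protein binds CArG boxes (74.8% and 34.7%), and Mef2d, an activity-dependent factor (42.2% and 16.7%). Of 11 genes described as Egr1 targets, Nab2 among them, 3 were larger, 4 smaller and none past 25 points, with a median difference of 0. Differences of 25 points were thus found at 2 activators and 1 relative, but the lists hold long genes, up to 178456 bp for Mrtfa, in which a region fills little of the body. By fold enrichment, a Gtf3c1 region of at least 6 within 5 kb with KCl alone was found at 4 of 10 relatives, 2 of 11 activators, 1 of 2 corepressor genes and 0 of 11 target genes, beside the 7.0% of protein-coding genes given above.

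Other immediate-early transcription factor genes also had larger Gtf3c1 cover with KCl. Of 12, all had a larger Gtf3c1 cover with KCl and 10 by at least 25 points, with a median of 52.4 points, against 57.2 over the 4 Egr genes and 0 over all protein-coding genes. The 10 were the AP-1 genes Fos, Fosb, Fosl2, Jun and Junb, the nuclear receptor genes Nr4a1, Nr4a2 and Nr4a3, Npas4, which encodes a neuronal bHLH-PAS factor, and Ier2. Fosb had 100% with KCl and 7.07% without, and Junb 100% and 17.0%. By fold enrichment, a Gtf3c1 region of at least 6 within 5 kb with KCl alone was found at 6 of the 12. At 5 of the 12 such a region was already there without KCl, as at none of the Egr genes. H3K27ac cover was larger with KCl at 11 of the 12 but by 25 points or more at 3, with a median of 11.6 points, against 50.2 over the Egr genes. At Fos, Jun, Junb, Npas4 and Ier2 the cover without KCl was already 80.6%, 88.9%, 95.8%, 90.1% and 100%. That is too high for a difference of 25 points, whereas no Egr gene had more than 48.3% without KCl. H3K4me1 cover was larger at 5 and smaller at 7 of the 12, and larger at all 4 Egr genes. By the 8 values of body cover, the protein-coding genes closest to Egr1, of 16454 compared, included Fosb, Btg2, Msmo1 and 2310011J03Rik, at Euclidean distances of 24.6 to 39.4 percentage points. Btg2 encodes an antiproliferative protein and Msmo1 an enzyme of sterol synthesis. Egr3 ranked 29th, Egr2 148th and Egr4 321st, so the members were less like Egr1 in these 8 values than Fosb was.

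**Figure D5:**
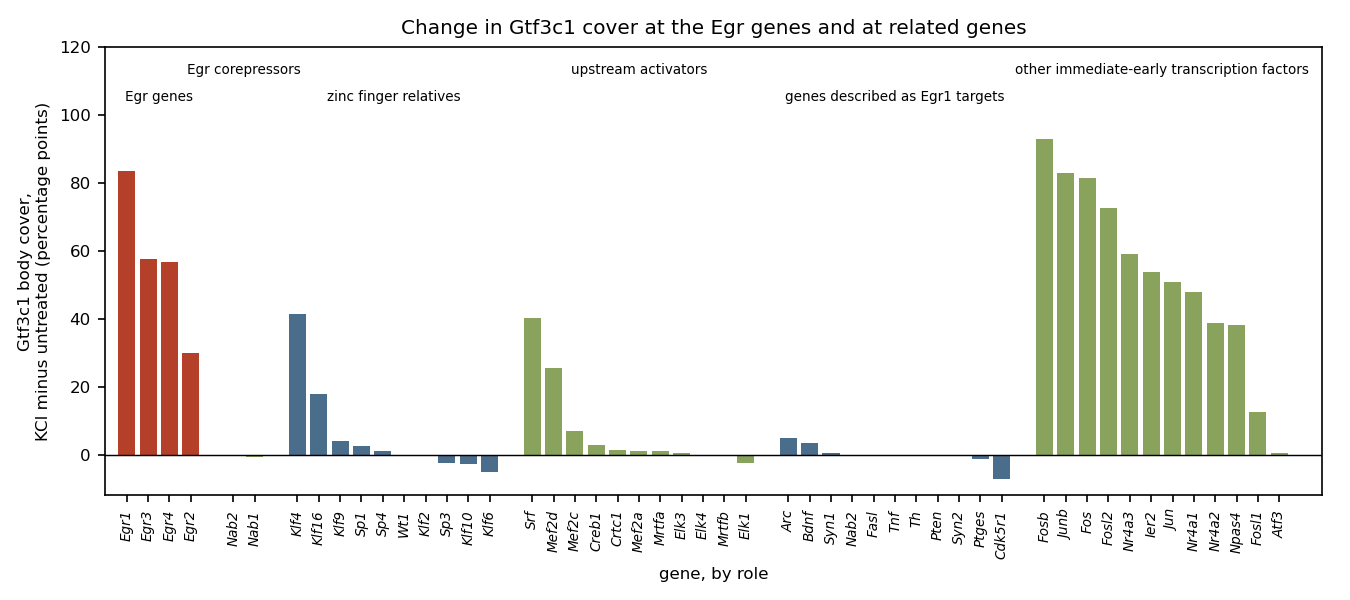
Gtf3c1 gene body cover, KCl minus untreated (percentage points, vertical axis), for the Egr genes (red) and the related genes, grouped by role (horizontal axis; blue and green only separate the groups); each bar is 1 gene from 1 pair of lists. The Egr genes stand between 29.8 and 83.4 points, and 10 of 12 other immediate-early transcription factor genes are at 25 points or more.

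The cultures carried H3K27ac within 1 kb of all 10 neuronal marker genes in both lists, with summed fold enrichments of 102 with KCl and 87.1 without. Astrocyte genes had it at 4 of 5 in each list (17.4 and 14.6; Aldh1l1 at 0 with KCl and Gja1 at 0 without), oligodendrocyte lineage genes at 2 of 5 (12.2 and 13.2; Mbp at 8.10 and 10.3, Mog at 4.05 and 2.94, Olig1 and Olig2 among those at 0) and endothelial genes at 2 of 3 (7.04 and 7.24; Cldn5 at 0). All 5 microglial and 4 non-neural genes were at 0.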

How the data were processed

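ChIP-seq regions of 4 antibodies in KCl-treated and untreated neurons were taken from 8 deposited lists, 1 per antibody and condition. The submitters' processing notes name Bowtie2, MACS2 and the GRCm38/mm10 build. Tool versions, and whether replicates were pooled, are not given. No use was made of the 2 input libraries. The deposited fold enrichment is a ratio, taken at a region's summit. The −log10 p and −log10 q were deposited as the peak caller gave them. The deposited score is 10 times the −log10 q. They are the authors' values, not adjusted between libraries, and they describe and rank regions within a list. A q of 0.05 was the lists' limit. Depth is unknown, since the lists hold no counts.

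Positions are 1-based on GRCm38. A region was within 50 kb, within 5 kb or overlapping at 1 bp or more. Gene body cover is the share of a gene from RefSeq start to end inside regions. Strand was known only for the RefSeq promoter windows of Egr2 and Egr4. Shares have exact Clopper-Pearson 95% intervals. Named are the 4 members, Nab1, Nab2, related genes whose Gtf3c1 cover differed by 25 points or more, and genes among the 5 nearest to Egr1, with some items not reported here; neighbouring genes are named where a region lies at them. The members and lists were chosen with earlier results of these data known. Interval code was checked on simulated regions. Python 3.11.15, NumPy 2.4.6, pandas 2.3.3, SciPy 1.17.1 and Matplotlib 3.10.9 were used. Alternatives were a q of 1e-05 or lower, equal list lengths, other windows, overlaps, distances and thresholds. The number of unused columns of per-sample values was 0.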

Additional observations from a re-analysis of the deposited data

How the results depend on the processing

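The larger Gtf3c1 cover of each Egr gene with KCl kept its direction under a q of 1e-05 or lower, equal list lengths and 1 kb flanks, with 83.4 to 100 points at Egr1, 53.6 to 62.7 at Egr3, 52.4 to 56.6 at Egr4 and 23.4 to 29.8 at Egr2. Of the summary values under an alternative, 24 moved by more than 1.5 times, and 1 did so with a turn in direction. The other 95 stayed within 1.5 times of the reported one. Some of these still crossed a ratio of 1, KCl over untreated: the distal Gtf3c1 length was 0.844 beyond 5 kb (1.24), the Rpc155 length within 50 kb 1.25 at the stricter q (0.969), and the distal H3K4me1 length 0.982 within 25 kb, 0.901 within 100 kb, 0.983 beyond 5 kb and 0.862 with protein-coding gene ends (1.01). Single-gene cover differences that moved by over 1.5 times were H3K27ac at Egr1, 60.8 points at the stricter q (39.9); Rpc155 at Egr1, 13.9 with 1 kb flanks (5.17), and at Egr4, 16.0 with flanks and 0 at the stricter q (28.9); and, with flanks, H3K4me1 at Egr3, 3.95 (9.31), and at Egr4, 10.99 (3.97). Genes past the fold enrichment threshold with KCl alone numbered, at 4 and at 10 in place of 6, 2 and 1 for Gtf3c1 (4 as reported) and 1 and 1 for H3K27ac (2), and at 4 there was 1 for Rpc155 (0). Among regions overlapping the gene itself there was 1 for H3K4me1 (0), and the H3K27ac median ratio was 2.53 (1.56). The Rpc155 length covered within 50 kb, KCl over untreated, turned with equal list lengths, at 2.35 in place of 0.969, since only the untreated list is shortened there, and was 0.609 within 100 kb; the mean Rpc155 gene body difference was 1.29 points at the stricter q (8.52). Shared distal Gtf3c1 regions (7) numbered 2 at the stricter q, 13 within 100 kb and 1 beyond 5 kb from a gene; those of H3K4me1 (23) 15 within 25 kb, 51 within 100 kb and 10 beyond 5 kb; those of H3K27ac (6) 2 beyond 5 kb. Enhancers with KCl (10) numbered 6 at the stricter q, 6 within 25 kb and 16 within 100 kb, and without (6) 12 within 100 kb; those with Gtf3c1 were 2 at the stricter q and 7 within 100 kb with KCl (4), and 0 and 5 without (2). Apart from settings that change the list or window itself, the causes were not tested. Counting only protein-coding gene ends, and the set of genes of like length, were chosen after seeing the data. No paired analysis was possible because each antibody and condition has 1 list.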

Other observations

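The genes beside the Egr genes had smaller differences in Gtf3c1 cover, but several are long, up to 219512 bp for Pebp4, and a region fills little of them. Of 8 protein-coding neighbours within 50 kb, the difference in Gtf3c1 cover, KCl minus untreated, ran from -9.65 points at Ado, beside Egr2, to 3.75 points at Reep2, which encodes an endoplasmic reticulum shaping protein and lies next to Egr1. Reep2 had 35.2% with KCl and 31.5% without. Etf1, a translation release factor gene on the other side of Egr1, had 6.19% and 3.35%, and Fbxo41, next to Egr4, 5.95% and 3.70%. By fold enrichment, Reep2 (6.46 with KCl, 5.37 without), Etf1 (6.82 and 4.48) and Cct7, near Egr4 (6.28 and 4.48), passed 6 within 5 kb with KCl alone. This was so at 7.0% of protein-coding genes. Pebp4, near Egr3, had 29.4 with KCl and 17.5 without. These regions of Pebp4, and the strongest KCl regions of Etf1 and Cct7, lay more than 50 kb from the Egr gene. At Kdm3b, Ado, Bin3 and Fbxo41 the strongest region was lower with KCl. No test between these genes and the Egr genes was possible with 1 list per condition.

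Between Reep2 and Egr1, at the noncoding gene Gm41689 (chromosome 18, 34849125 to 34850988), Gtf3c1 and H3K27ac were listed in both conditions. The strongest Gtf3c1 region there had a fold enrichment of 6.46 with KCl (34851500 to 34852238) and 5.37 without (34851796 to 34852459). These are the same regions as those counted above for Reep2, and they lay outside that gene. H3K27ac had 11.9 with KCl and 8.51 without. H3K4me1 reached 20.98 with KCl and 20.3 without, its highest values within 50 kb of any Egr gene. Rpc155 had its 2 regions there in the untreated list alone.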
